A study of Mus musculus with 6 samples.

Results

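The transcripts of sugar, amino acid, peptide and monocarboxylate transporters were measured in colonic tumors of 6 mouse samples. Members were the protein-coding genes of the count table whose names begin with Slc1a, Slc2a, Slc3a, Slc5a, Slc6a, Slc7a, Slc15a, Slc16a, Slc36a, Slc38a or Slc43a followed by a number. A single letter after the number was accepted, which brings in Slc6a20a and Slc6a20b. The rule found 91 genes of 24797 in the table, in 11 families. Of these, 81 had enough reads to be tested and 10 did not.

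GRdim samples were 3 tumors (replicates 1, 2 and 3) of mice whose glucocorticoid receptor is deficient in dimerization, and GRwt samples were 3 tumors (replicates 1, 2 and 3) of mice with the wildtype receptor. Both genotypes received AOM/DSS, that is the colon carcinogen azoxymethane together with dextran sulfate sodium, which damages the colonic lining. GRdim is known as a point mutation of the receptor gene, so the read count of the receptor gene cannot check the genotype labels. Age and sex are not in the labels. Nor do the labels tie each tumor to an animal of its own, and a p-value therefore weighs only how these 6 samples spread, which can include technical spread.

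Solute carriers move small molecules across membranes. Facilitative carriers such as the Slc2a glucose transporters let a substrate run down its gradient, whereas others are driven by sodium, protons or exchange for a second amino acid. In the colon the lining takes up butyrate made by bacteria, and growing tumor cells draw on glucose, glutamine and essential amino acids and release lactate.

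Total counts per library ran from 21132981 to 36222351, and members took 0.267% to 0.335% of them. GRdim replicate 1 and GRwt replicate 3 have library names with a T. Their counts held 2.05% and 2.51% of ribosomal Rn18s-rs5, and those of the other 4 libraries no more than 0.0725%. GRdim replicate 2 held 2101 counts of the Y-linked Ddx3y and 9 of Xist, and was the single library of this kind. GRdim replicates 1 and 3 share a number in their library names, and it is unknown if they share an animal. All 10 epithelial markers were present in every library, with summed levels of 13390 to 16170 CPM in GRdim and 13520 to 20760 CPM in GRwt tumors, and all 10 had lower means in GRdim tumors, none at an unadjusted p under 0.05. Neutrophil markers had lower means in GRdim tumors in 8 of 8 cases, 5 of them at an unadjusted p under 0.05, where 1.09% of all genes tested stood lower. Their summed levels were 31.9 to 50.02 CPM in GRdim and 77.5 to 105 CPM in GRwt tumors.

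Lists of markers for other tissue showed that GRdim replicate 3 stood apart. Scores below are the mean log2 CPM of a list minus its GRwt mean, CPM being counts scaled to the normalized library total. Smooth muscle scores were 1.01, -0.16 and 2.13 in GRdim replicates 1, 2 and 3 and -0.01, -0.11 and 0.12 in GRwt replicates 1, 2 and 3. All 10 smooth muscle markers had higher means in GRdim tumors, 9 of them at an unadjusted p under 0.05, where 1.79% of all genes tested stood higher. The score of GRdim replicate 2 was nevertheless the lowest of all 6. Summed levels of the smooth muscle markers were 1469 to 7617 CPM in GRdim and 1499 to 1757 CPM in GRwt tumors. Adipocyte scores were 3.40, -0.53 and 2.84 in GRdim replicates 1, 2 and 3 and 1.60, -0.78 and -0.82 in GRwt replicates 1, 2 and 3, and the summed levels of the 9 adipocyte markers were 95.8 to 281 CPM in GRdim and 97.9 to 146 CPM in GRwt tumors. Much of these sums came from the marker Pck1, whose log2 fold change was -0.35. Pck1 had 126.2, 71.4 and 15.5 CPM in GRdim replicates 1, 2 and 3 and 83.2, 124.5 and 64.7 CPM in GRwt replicates 1, 2 and 3. The fat droplet protein Plin1 was at 0 counts in GRdim replicate 2 and in GRwt replicates 2 and 3. Squamous epithelium scores were 0.57, 0.11 and 3.54 in GRdim replicates 1, 2 and 3 and -0.21, 0.37 and -0.16 in GRwt replicates 1, 2 and 3, with summed levels of 97.4 to 706 CPM in GRdim and 104 to 213 CPM in GRwt tumors. Goblet cell scores were -0.03, -0.17 and -1.65 in GRdim replicates 1, 2 and 3 and 0.08, 0.34 and -0.42 in GRwt replicates 1, 2 and 3.

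**Figure D1:**
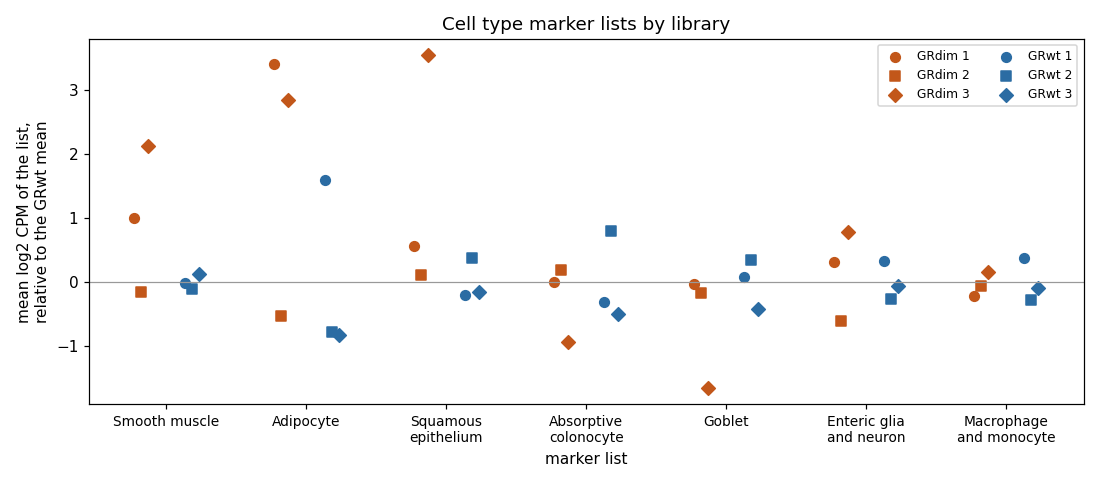
Marker lists by library. The y axis is the mean log2 CPM of each list relative to the GRwt mean, the x axis names the list, and each point is 1 library (GRdim on the left of each pair, GRwt on the right). GRdim replicate 3 is the highest library in smooth muscle (2.13) and squamous markers (3.54) and the lowest in goblet markers (-1.65), and GRdim replicates 1 and 3 are the highest in adipocyte markers.

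No transporter passed the threshold between the genotypes. Of the 81 tested members 51 had higher and 30 had lower means in GRdim tumors, with a median log2 fold change (GRdim minus GRwt) of 0.10, beside 0.00 over all 18756 tested genes. With the edgeR quasi-likelihood test 0 members reached an adjusted p under 0.05, in a table where 0% of all genes tested did so. All tested members had an adjusted p of 0.9999. At an unadjusted p under 0.05, 5 members stood higher (6.17%, beside 1.79% of all genes tested) and 2 stood lower (2.47%, beside 1.09%). Groups did not overlap for 5 higher members, namely Slc2a4, Slc2a9, Slc1a2, Slc1a3 and Slc7a2 (6.17%, beside 2.98% of all genes tested) and for 3 lower ones, Slc7a6, Slc7a7 and Slc38a4 (3.7%, beside 3.57%). Without GRdim replicate 3 the number higher at an unadjusted p under 0.05 was 1, beside 0.622% of all genes in that fit, and without GRdim replicate 1 it was 11, beside 2.81%. The number lower was 0 without GRwt replicate 1, beside 0.628% of all genes, and 8 without GRdim replicate 1, beside 2.58%. DESeq2, which called 33 genes in the whole table, called 0 members. At an unadjusted p under 0.05 it gave 9 members higher and 2 lower, beside 1.87% and 1.25% of all genes, and limma-voom gave 4 and 4, beside 2.62% and 2.19%. A fold change below 1.5 in either direction was estimated for 66 of the 81 members, beside 16379 of all 18756 tested genes. In such bulk tissue fewer cells of a type and less RNA per cell cannot be told apart.

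**Figure D2:**
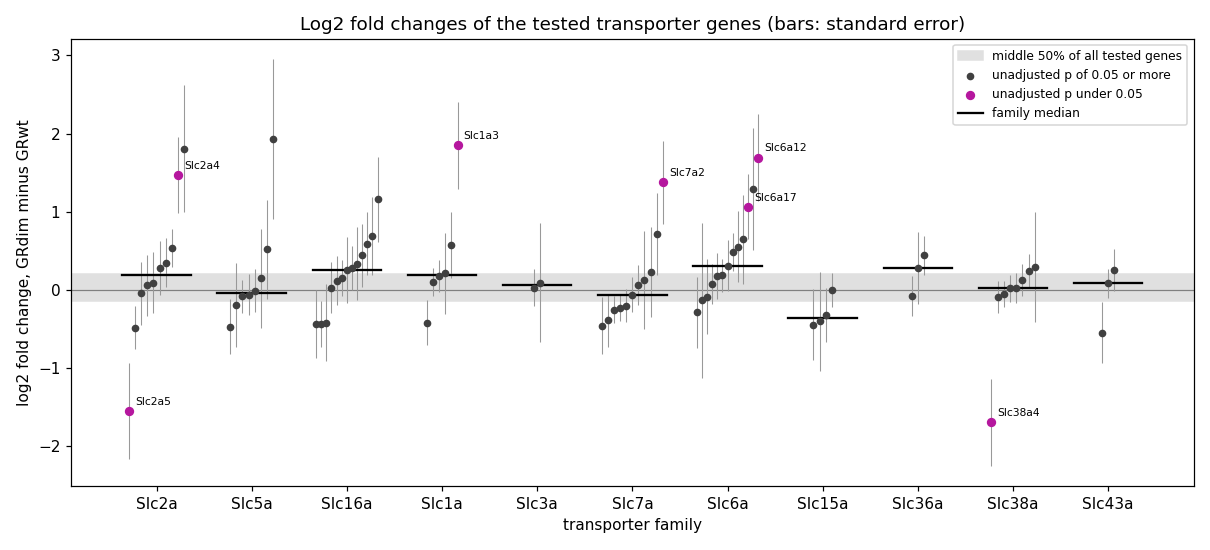
Log2 fold changes by family. The y axis is the log2 fold change (GRdim minus GRwt) of each of the 81 tested members with its standard error, the x axis names the family, black lines are family medians, and the grey band spans the middle 50% of all tested genes (-0.15 to 0.20). The 7 named points are the members with an unadjusted p under 0.05, and the 2 highest points with no name are Slc5a5 (1.93) and Slc2a12 (1.81), which have wider errors.

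Levels between genes are compared per kb of exon, as CPM divided by the summed exon length. Slc6a creatine, taurine and amino acid carriers held 27.1% of the members' level, followed by Slc16a with 13.5% and Slc38a with 11.4%. Slc43a held 1.27%. The most abundant single transcripts were Slc6a14 (71.8 CPM per kb over 6 libraries), Slc6a8 (60.6), Slc2a1 (39.1), Slc3a2 (30.9), Slc16a1 (30.5) and Slc1a5 (28.9). Summed over all 91 members, the level was 669, 529.6 and 569.6 CPM per kb in GRdim replicates 1, 2 and 3 and 540.1, 708 and 562 CPM per kb in GRwt replicates 1, 2 and 3. GRdim replicate 1 and GRwt replicate 2 were the highest of their genotypes, and the groups overlapped.

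**Figure D3:**
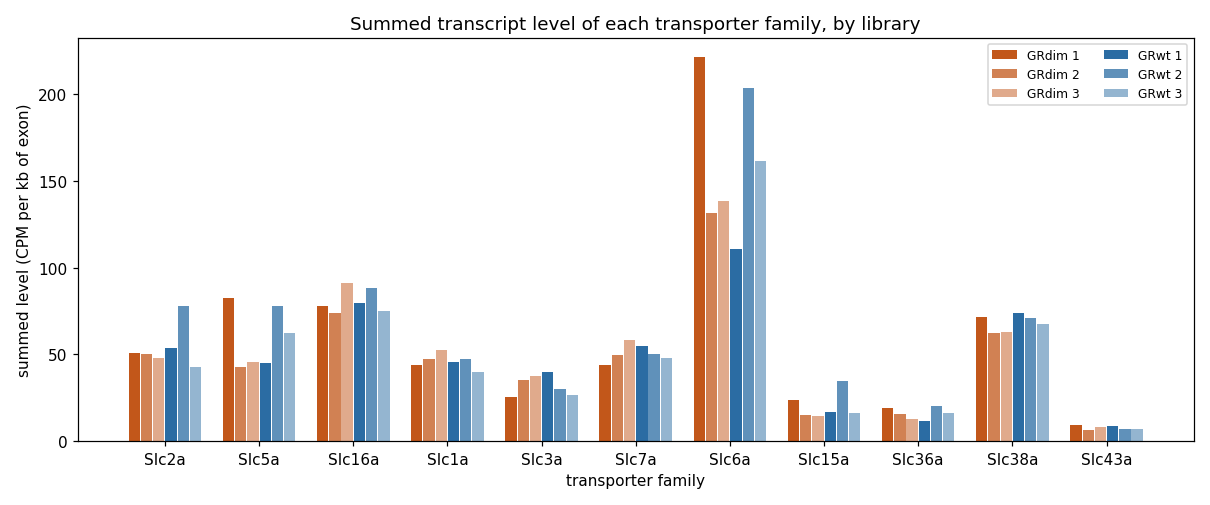
Summed level of each family by library. The y axis is the sum of CPM per kb of exon over the family's members, the x axis names the family, and each bar is 1 library with GRdim bars left of GRwt bars. Slc6a stands above the other families in all 6 libraries, and within Slc6a, Slc5a and Slc15a GRdim replicate 1 and GRwt replicate 2 are the highest of their genotypes.

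The facilitative sugar carriers (Slc2a, 10 of 11 members tested) went in both directions. Slc2a1, the widespread basal glucose transporter and the family's most abundant member at 32.6 CPM per kb in GRdim and 45.6 in GRwt tumors, had 114, 134 and 95.4 CPM in GRdim replicates 1, 2 and 3, against 144, 226 and 110.4 CPM in GRwt replicates 1, 2 and 3. GRwt replicate 2 was the highest and the groups overlapped (log2 fold change -0.48, standard error 0.28, unadjusted p = 0.114). Without that library the log2 fold change was -0.16. Slc2a4, the insulin-responsive transporter of fat and muscle (chromosome 11, 69833365 to 69839014, minus strand, GRCm39), had 10.9, 7.23 and 29.5 CPM in GRdim replicates 1, 2 and 3, against 6.04, 6.25 and 4.95 CPM in GRwt replicates 1, 2 and 3. Every GRdim library lay above every GRwt library, GRdim replicate 3 by far the highest (log2 fold change 1.47, standard error 0.49, unadjusted p = 0.0155). Its estimate without GRdim replicate 3 was 0.65, and that library is the highest in smooth muscle markers, with adipocyte markers high as well. Whether that tissue accounts for the level was not tested.

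Slc2a12, a second carrier of muscle and fat, had 1.87, 0.708 and 8.3 CPM in GRdim and 1.101, 0.661 and 1.299 CPM in GRwt tumors in replicates 1, 2 and 3. A single library was high, GRdim replicate 3 (log2 fold change 1.81, standard error 0.81, unadjusted p = 0.0551). Without it the log2 fold change was 0.31. Slc2a9, a urate transporter (chromosome 5, 38506616 to 38660486, minus strand, GRCm39), had 7.45, 7.08 and 6.91 CPM in GRdim replicates 1, 2 and 3, against 4.999, 4.78 and 5.003 CPM in GRwt replicates 1, 2 and 3. The genotypes did not overlap and each kept a narrow range (log2 fold change 0.54, standard error 0.24, unadjusted p = 0.0567), and over the libraries left out in turn the log2 fold change stayed between 0.50 and 0.55. The edgeR test pools information on the spread across genes, so a narrow range in 1 gene does not set its p alone.

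Slc2a5, the fructose transporter of the intestinal brush border (chromosome 4, 150203740 to 150228626, plus strand, GRCm39), had the family's lowest log2 fold change and stood at 0.521 ± 0.248 CPM in GRdim and 1.55 ± 0.831 CPM in GRwt tumors (mean ± SD, n = 3 each). It rested on few reads, 21, 17 and 8 counts in GRdim replicates 1, 2 and 3 and 62, 43 and 22 in GRwt replicates 1, 2 and 3. GRwt replicate 3 lay inside the GRdim range (log2 fold change -1.56, standard error 0.62, unadjusted p = 0.03402). Of the rest, the intracellular carriers Slc2a8 and Slc2a6 averaged 11.4 ± 2.98 against 8.99 ± 2.804 CPM and 2.47 ± 0.23 against 2.03 ± 0.487 CPM (GRdim against GRwt), and the neuronal-type transporter Slc2a3 averaged 2.96 ± 0.678 against 2.83 ± 1.09 CPM; Slc2a6 and Slc2a3 were chosen after their values were seen. Slc2a2, the liver and beta cell transporter, was not tested, with no more than 5 counts in a library. The family median was 0.19 (range -1.56 to 1.81), with 7 members higher and 3 lower, and it was 0.09 without GRwt replicate 2 and 0.27 without GRwt replicate 1.

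**Figure D4:**
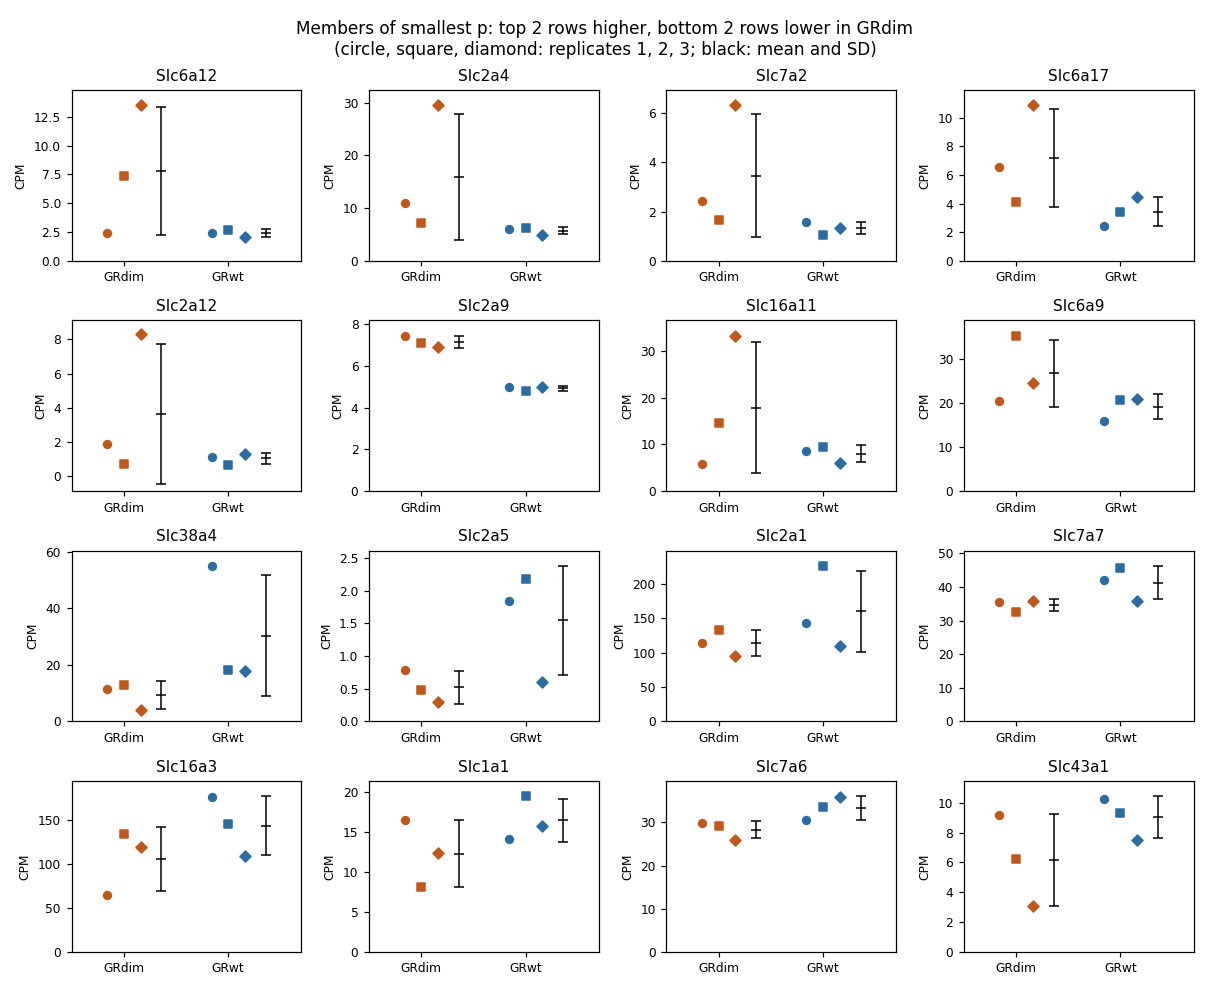
CPM by library for the 8 higher members of smallest p (upper panels) and the 8 lower ones (lower panels), among members with a mean of at least 1 CPM. In each panel the y axis is CPM, GRdim stands left of GRwt, symbols are replicates 1, 2 and 3, and the black mark is the mean with its SD. Slc2a4, Slc7a2, Slc2a12, Slc6a17, Slc6a12 and Slc16a11 are each highest in GRdim replicate 3, while the 6 libraries of Slc2a9 form separate ranges.

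Sodium-coupled carriers (Slc5a, 8 members, all tested) had a median of -0.04 (range -0.47 to 1.93), with 3 higher and 5 lower. The median's sign was not kept: it was -0.17 without GRwt replicate 1 and 0.07 without GRwt replicate 2. Slc5a1, the sodium-glucose cotransporter of the gut lining, had 117, 80.4 and 95.8 CPM in GRdim replicates 1, 2 and 3, against 84.95, 128 and 98.9 CPM in GRwt replicates 1, 2 and 3. The groups overlapped almost completely (log2 fold change -0.09, standard error 0.22, unadjusted p = 0.704). Slc5a8, which takes up butyrate and lactate in the colon and is known to be silenced in many colon cancers, varied far more between libraries of 1 genotype, with 203, 67.3 and 44.1 CPM in GRdim replicates 1, 2 and 3, against 68.8, 157 and 134 CPM in GRwt replicates 1, 2 and 3. GRdim replicate 1 was the highest of all and GRdim replicate 3 the lowest (log2 fold change -0.20, standard error 0.54, unadjusted p = 0.722). The estimate was -1.11 without GRdim replicate 1 and 0.16 without GRdim replicate 3, so these data do not fix its direction.

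Slc5a5, the iodide transporter, had 0.337, 1.05 and 9.73 CPM in GRdim and 1.04, 0.915 and 0.9398 CPM in GRwt tumors in replicates 1, 2 and 3. It was high in GRdim replicate 3 and below every GRwt library in GRdim replicate 1 (log2 fold change 1.93, standard error 1.02, unadjusted p = 0.0934). Without GRdim replicate 3 the log2 fold change was -0.47. That library was the highest in both squamous and smooth muscle markers, and the part of these tissues in the Slc5a5 level was not tested. Slc5a3, the myo-inositol carrier, and Slc5a6, the carrier of biotin and pantothenate, averaged 35.2 ± 16.7 against 48.9 ± 16.96 CPM and 25.2 ± 8.26 against 26.4 ± 4.93 CPM (GRdim against GRwt), both chosen after their values were seen. Mrps6 overlaps Slc5a3 on the same strand, so reads of the pair may not be fully separated. Of all members, 31 overlap another counted gene. The choline carrier Slc5a7 and the inositol carrier Slc5a11 stayed below 1 CPM on average.

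Monocarboxylate and related carriers (Slc16a, 13 of 14 members tested) included 10 with higher and 3 with lower means, and a median of 0.25 (range -0.44 to 1.16), which was 0.11 without GRdim replicate 3 and 0.31 without GRwt replicate 1. Slc16a1, which carries lactate, pyruvate and butyrate, had 191, 81.2 and 138 CPM in GRdim replicates 1, 2 and 3, against 96.4, 166 and 139 CPM in GRwt replicates 1, 2 and 3. The groups overlapped, and the estimate was far smaller than its error (log2 fold change 0.03, standard error 0.32, unadjusted p = 0.931). Slc16a3, the lactate exporter of glycolytic cells, had 64.3, 134 and 119 CPM in GRdim replicates 1, 2 and 3, against 176, 145 and 109 CPM in GRwt replicates 1, 2 and 3. GRdim replicate 1 was the lowest and GRwt replicate 1 the highest (log2 fold change -0.44, standard error 0.30, unadjusted p = 0.176), and without GRdim replicate 1 the log2 fold change was -0.18. Per kb, Slc16a1 stood at 30.8 CPM per kb in GRdim and 30.2 in GRwt tumors, and Slc16a3 at 19.9 CPM per kb in GRdim and 26.9 in GRwt tumors. The table's Csnk1d gene overlaps Slc16a3 on the opposite strand, and since the strand setting of the counting is not given, reads of the pair may not be fully separated.

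Slc16a11, a monocarboxylate carrier of liver and other tissue, had 5.803, 14.6 and 33.3 CPM in GRdim replicates 1, 2 and 3, against 8.6, 9.46 and 6.03 CPM in GRwt replicates 1, 2 and 3. GRdim replicates 3 and 2 were the highest and GRdim replicate 1 the lowest of the 6 (log2 fold change 1.16, standard error 0.54, unadjusted p = 0.0634), and without GRdim replicate 3 the log2 fold change was 0.35. Slc16a13, its neighbor on chromosome 11, and Slc16a10, a transporter of aromatic amino acids, were named after their values were seen, and averaged 16.5 ± 5.52 against 13.5 ± 1.96 CPM and 40.6 ± 18.97 against 26.9 ± 9.44 CPM (GRdim against GRwt). Slc16a14 had 6 counts in GRdim replicate 3, 1 in GRwt replicate 3 and 0 in the other 4 libraries.

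Glutamate and neutral amino acid carriers (Slc1a, 6 of 7 members tested) had a median of 0.19 (range -0.42 to 1.85), with 5 higher and 1 lower. The median was 0.11 without GRdim replicate 3 and 0.44 without GRdim replicate 1. It reached 0.56 when both libraries with a T were left out. Slc1a5, the glutamine transporter much used by proliferating cells, had 118, 117 and 140.4 CPM in GRdim replicates 1, 2 and 3, against 112, 136 and 101 CPM in GRwt replicates 1, 2 and 3. Its libraries lay close together and overlapped (log2 fold change 0.10, standard error 0.18, unadjusted p = 0.588). Slc1a4, a carrier of alanine, serine and cysteine, averaged 60.5 ± 9.802 CPM in GRdim and 53.5 ± 9.38 CPM in GRwt tumors and Slc1a1, a glutamate and aspartate carrier of epithelium and neurons, 12.3 ± 4.18 CPM in GRdim and 16.5 ± 2.696 CPM in GRwt tumors (mean ± SD, n = 3 each). The groups overlapped for both, and Slc1a1 was the lower of the family's members (log2 fold change -0.42, standard error 0.29, unadjusted p = 0.182). Slc1a2, the main glutamate transporter of astrocytes, had 1.98, 2.04 and 2.61 CPM in GRdim and 1.64, 0.814 and 1.96 CPM in GRwt tumors in replicates 1, 2 and 3 (log2 fold change 0.57, standard error 0.42, unadjusted p = 0.2099), chosen after its values were seen for its lack of overlap. Slc1a6 was not tested, with 11, 7 and 8 counts in GRdim replicates 1, 2 and 3 and 6, 1 and 4 in GRwt replicates 1, 2 and 3.

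Slc1a3, the glutamate transporter of glial cells (chromosome 15, 8663608 to 8740248, minus strand, GRCm39), had the smallest unadjusted p of all members and was chosen after its value was seen, since its mean lay below 1 CPM. It had 61, 34 and 28 counts in GRdim replicates 1, 2 and 3 and 8, 10 and 16 in GRwt replicates 1, 2 and 3. In CPM these were 2.28, 0.963 and 1.03 CPM in GRdim and 0.238, 0.509 and 0.442 CPM in GRwt tumors, with no overlap (log2 fold change 1.85, standard error 0.56, unadjusted p = 0.01001). Its log2 fold change was 1.33 without GRdim replicate 1, the highest library. Enteric glia and neuron markers had scores of 0.31, -0.60 and 0.78 in GRdim replicates 1, 2 and 3 and 0.33, -0.27 and -0.06 in GRwt replicates 1, 2 and 3, with 5 of 8 higher and summed levels of 35.6 to 51.5 CPM in GRdim and 38.4 to 53.7 CPM in GRwt tumors. Macrophage and monocyte markers were higher in 1 and lower in 7 of 8 cases, with scores of -0.22, -0.07 and 0.16 in GRdim replicates 1, 2 and 3 and 0.38, -0.29 and -0.10 in GRwt replicates 1, 2 and 3. Their median log2 fold change was only -0.08, and none had an unadjusted p under 0.05. GRdim replicate 1, the highest for Slc1a3, was not the highest in either list, and the part of these cells in its level was not tested.

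Slc3a1 and Slc3a2 are the heavy chains that bring Slc7a light chains to the cell surface. Slc3a2, the partner of Slc7a5, Slc7a6, Slc7a7, Slc7a8 and Slc7a11, had 81.01, 118 and 131 CPM in GRdim replicates 1, 2 and 3, against 136, 98.6 and 89.7 CPM in GRwt replicates 1, 2 and 3. The groups overlapped and the means were nearly equal (log2 fold change 0.03, standard error 0.24, unadjusted p = 0.9102). Slc3a1, the partner of the cystine carrier Slc7a9 in kidney and small intestine, had 6.03, 3.797 and 0.441 CPM in GRdim and 2.29, 5.14 and 2.27 CPM in GRwt tumors in replicates 1, 2 and 3. GRdim replicate 1 was the highest and GRdim replicate 3 the lowest of the 6 (log2 fold change 0.09, standard error 0.76, unadjusted p = 0.906), and the log2 fold change was -0.59 and 0.61 without either. Per kb, Slc3a2 at 30.9 CPM per kb stood above each light chain, the highest of which were Slc7a5 at 12.7 and Slc7a7 at 11.4.

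The light chains and cationic carriers of Slc7a (11 of 13 tested) had a median of -0.06 (range -0.46 to 1.38), with 5 higher and 6 lower. The median was -0.18 without GRdim replicate 3 and -0.08 without GRwt replicate 1. Slc7a5, which exchanges large neutral amino acids such as leucine, had 38.9, 37.1 and 55.6 CPM in GRdim replicates 1, 2 and 3, against 58.6, 48.98 and 43.9 CPM in GRwt replicates 1, 2 and 3. GRdim replicate 3 and GRwt replicate 1 were the highest of their genotypes (log2 fold change -0.20, standard error 0.21, unadjusted p = 0.367). Slc7a7 and Slc7a6, which exchange cationic for neutral amino acids, did not overlap between genotypes, with GRdim lower by small margins. Slc7a7 had 35.6, 32.4 and 35.8 CPM in GRdim replicates 1, 2 and 3, against 41.99, 45.7 and 35.9 CPM in GRwt replicates 1, 2 and 3 (log2 fold change -0.25, standard error 0.17, unadjusted p = 0.168). The gap between GRdim replicate 3 and GRwt replicate 3 was the narrowest, and Oxa1l overlaps Slc7a7 on the opposite strand. Slc7a6 had 29.8, 29.2 and 26 CPM in GRdim and 30.5, 33.5 and 35.9 CPM in GRwt tumors in replicates 1, 2 and 3 (log2 fold change -0.24, standard error 0.16, unadjusted p = 0.189).

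Slc7a2, an arginine carrier known from muscle, liver and activated macrophages (chromosome 8, 41315433 to 41375345, plus strand, GRCm39), had 2.43, 1.64 and 6.32 CPM in GRdim replicates 1, 2 and 3, against 1.58, 1.07 and 1.33 CPM in GRwt replicates 1, 2 and 3. The genotypes did not overlap, though GRdim replicate 2 and GRwt replicate 1 were close and GRdim replicate 3 was far above the rest (log2 fold change 1.38, standard error 0.53, unadjusted p = 0.0314). Without GRdim replicate 3 the estimate was 0.61. Slc7a8, a neutral amino acid exchanger of the basolateral membrane, had 21.1, 71.2 and 82.6 CPM in GRdim replicates 1, 2 and 3, against 52.5, 16.6 and 37.1 CPM in GRwt replicates 1, 2 and 3. It was low in GRdim replicate 1 and GRwt replicate 2 and high in GRdim replicates 2 and 3 (log2 fold change 0.72, standard error 0.53, unadjusted p = 0.2101). Slc16a10, another basolateral carrier, had 18.8, 53.8 and 49.1 CPM in GRdim and 36.6, 17.7 and 26.5 CPM in GRwt tumors in replicates 1, 2 and 3, lowest in the same libraries. The cystine carrier Slc7a11 and the arginine carrier Slc7a1 averaged 5.75 ± 1.64 against 7.55 ± 2.405 CPM and 48.95 ± 12.7 against 51.2 ± 6.83 CPM (GRdim against GRwt), both chosen after their values were seen. Slc7a10, an alanine and serine carrier also known from fat cells, was not tested: it had 22, 0 and 7 counts in GRdim replicates 1, 2 and 3 and 7, 0 and 2 in GRwt replicates 1, 2 and 3, and GRdim replicates 1 and 3, which held all of its GRdim counts, were the 2 libraries highest in adipocyte markers. Slc7a10 was named after its counts were seen, and the part of fat cells in them was not tested. Slc7a15 had no more than 7 counts in a library.

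Starvation for amino acids is known to raise several of these carriers through the factor ATF4, whose binding element with C/EBP partners reads TGATGCAA, or TTGCATCA on the other strand. The element was searched on both strands in RefSeq promoter windows of GRCm38.p6, each from 250 bases before to 50 after a gene's start; 67 of the 91 members were matched by symbol, with 89 windows. It was present in 4 windows (4.49%), of Slc1a4, Slc7a11 and Slc7a7, beside 0.895% of all 32851 windows. Stretches of 2 of these promoters are shown 5′ to 3′ to let the element be seen in its place, capitals marking it.
Slc7a11, chr3:50443628-50443704, minus strand: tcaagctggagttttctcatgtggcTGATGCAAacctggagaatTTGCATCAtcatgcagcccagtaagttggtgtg
Slc7a7, chr14:54417913-54417952, minus strand: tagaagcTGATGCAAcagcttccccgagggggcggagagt
The Slc7a11 stretch holds the element on each strand, separated by a short spacer. Slc7a11 had 7.6, 5.19 and 4.48 CPM in GRdim and 5.27, 7.32 and 10.1 CPM in GRwt tumors in replicates 1, 2 and 3 (log2 fold change -0.39, standard error 0.34, unadjusted p = 0.277). A match is a description of the letters and no measure of binding.

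Other genes of the starvation response had lower means in GRdim tumors in 11 of 12 cases, 3 of them at an unadjusted p under 0.05, where 1.09% of all genes tested stood lower, with a list median of -0.32 beside 0.00 over all genes. None passed the adjusted threshold. Cebpb, a C/EBP partner also induced by inflammation, had 16.7, 13.01 and 15.9 CPM in GRdim replicates 1, 2 and 3, against 31.9, 23.3 and 25.6 CPM in GRwt replicates 1, 2 and 3. Neutrophil markers, lower in GRdim tumors as given above, moved in the same direction, and their part in the Cebpb level was not tested. Phgdh and Asns, which make serine and asparagine, averaged 15.7 ± 1.12 against 23.1 ± 3.46 CPM and 45.4 ± 7.22 against 63.2 ± 8.46 CPM (GRdim against GRwt). For all 3 the GRdim range lay below the GRwt range, as it did for 3.57% of all genes tested. Atf4 itself averaged 204 ± 41.4 CPM in GRdim and 208 ± 34.97 CPM in GRwt tumors. GRwt replicate 3 had a list score of -0.35, within the range of the GRdim libraries (-0.51 to -0.21).

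The large Slc6a family (13 of 17 tested) had a median of 0.31 (range -0.29 to 1.69), with 10 higher and 3 lower, and the median was 0.23 without GRdim replicate 3 and 0.54 without GRwt replicate 1. Its leading members carry creatine, taurine and amino acids. Slc6a14, which takes up neutral and cationic amino acids and is known to be raised in colon cancer, had 428, 172 and 116 CPM in GRdim replicates 1, 2 and 3, against 151, 330.2 and 281 CPM in GRwt replicates 1, 2 and 3. As with Slc5a8, GRdim replicate 1 was the highest and GRdim replicate 3 the lowest of all 6 (log2 fold change -0.09, standard error 0.48, unadjusted p = 0.856). The log2 fold change was -0.82 without GRdim replicate 1 and 0.23 without GRdim replicate 3. Slc6a8, the creatine transporter, had 336, 268 and 366 CPM in GRdim replicates 1, 2 and 3, against 239.7, 417 and 268 CPM in GRwt replicates 1, 2 and 3, and the groups overlapped (log2 fold change 0.07, standard error 0.26, unadjusted p = 0.7904). Slc6a6, the taurine transporter, averaged 159.6 ± 28.02 CPM in GRdim and 140.3 ± 23.99 CPM in GRwt tumors (mean ± SD, n = 3 each), chosen after its values were seen.

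Slc6a12, the betaine and GABA carrier known from kidney and liver (chromosome 6, 121320035 to 121342734, plus strand, GRCm39), had 2.396, 7.396 and 13.5 CPM in GRdim replicates 1, 2 and 3, against 2.44, 2.69 and 2.07 CPM in GRwt replicates 1, 2 and 3. GRdim replicates 2 and 3 were high, while GRdim replicate 1 lay within the GRwt range (log2 fold change 1.69, standard error 0.55, unadjusted p = 0.0148). The log2 fold change without GRdim replicate 3 was 1.03. Slc6a13, its neighbor and a second GABA carrier, followed the same libraries with 0.449, 2.92 and 4.22 CPM in GRdim and 1.25, 0.356 and 1.44 CPM in GRwt tumors in replicates 1, 2 and 3 (log2 fold change 1.29, standard error 0.78, unadjusted p = 0.134). GRdim replicate 2, with high Slc6a12, had smooth muscle and adipocyte scores of -0.16 and -0.53, and the part of these tissues in its level was not tested.

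Slc6a17, a vesicle carrier of neutral amino acids in neurons (chromosome 3, 107374859 to 107425334, minus strand, GRCm39), had 6.59, 4.08 and 10.9 CPM in GRdim replicates 1, 2 and 3, against 2.44, 3.41 and 4.45 CPM in GRwt replicates 1, 2 and 3. GRdim replicate 2 lay within the GRwt range (log2 fold change 1.06, standard error 0.42, unadjusted p = 0.0329), and without GRdim replicate 3 the estimate was 0.63. Slc6a9, a glycine transporter, averaged 26.7 ± 7.65 CPM in GRdim and 19.1 ± 2.79 CPM in GRwt tumors (log2 fold change 0.48, standard error 0.24, unadjusted p = 0.0802). It was highest in GRdim replicate 2 and overlapped between genotypes, and without that library the log2 fold change was 0.23. The serotonin transporter Slc6a4 averaged 4.21 ± 1.64 against 5.16 ± 2.63 CPM (GRdim against GRwt), chosen after its values were seen. Slc6a20a, a proline carrier, and its close copy Slc6a20b share sequence, so that reads may be divided between them with uncertainty; Slc6a20b had no more than 8 counts in a library. The neuronal carriers Slc6a5 and Slc6a15 were not tested, with no more than 13 counts in a library.

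Peptide carriers (Slc15a) had log2 fold changes below 0 for all 4 members, Slc15a4 barely so, with a median of -0.36. The median was -0.61 without GRdim replicate 1 and -0.12 without GRwt replicate 1. No Slc15a member had an unadjusted p under 0.05. Slc15a1, which takes up dipeptides and tripeptides at the gut surface, had 86.8, 42.4 and 45.8 CPM in GRdim replicates 1, 2 and 3, against 47.5, 141 and 50.6 CPM in GRwt replicates 1, 2 and 3. GRwt replicate 2 was the highest by a wide margin and GRdim replicate 1 the second (log2 fold change -0.45, standard error 0.46, unadjusted p = 0.3504). Without GRwt replicate 2 the log2 fold change was 0.25. The lysosomal carriers Slc15a4 and Slc15a3, the second of them named after its values were seen, averaged 23.1 ± 4.22 against 23.2 ± 4.4 CPM and 7.75 ± 1.36 against 9.69 ± 3.8 CPM (GRdim against GRwt).

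GRwt replicate 2 also had the highest score of the absorptive colonocyte markers; those scores were 0.01, 0.19 and -0.94 in GRdim replicates 1, 2 and 3 and -0.30, 0.80 and -0.49 in GRwt replicates 1, 2 and 3. Summed levels of the 10 colonocyte markers were 1163 to 1888 CPM in GRdim and 1596 to 3633 CPM in GRwt tumors, and 8 of the 10 had lower means in GRdim tumors. GRdim replicate 1, high in Slc15a1, Slc5a8 and Slc6a14, had a colonocyte score below that of GRdim replicate 2. The part of these cells in the levels was not tested.

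Proton-coupled amino acid carriers (Slc36a, 3 members) were led by Slc36a1 of lysosomes and the gut surface, with 88.8, 74.2 and 56.7 CPM in GRdim replicates 1, 2 and 3, against 55.4, 101 and 75.04 CPM in GRwt replicates 1, 2 and 3 (log2 fold change -0.08, standard error 0.26, unadjusted p = 0.775). The groups overlapped. Slc36a4 averaged 14.8 ± 1.43 CPM in GRdim and 10.9 ± 2.85 CPM in GRwt tumors (log2 fold change 0.44, standard error 0.25, unadjusted p = 0.1104). Slc36a2, a carrier of glycine and proline, averaged 1.897 ± 0.927 against 1.56 ± 0.297 CPM (GRdim against GRwt). The family median of 0.28 did not keep its sign: it was -0.12 without GRdim replicate 1 and 0.39 without GRdim replicate 3.

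The Slc38a carriers of glutamine and other small neutral amino acids (8 of 9 tested) held the member with the lowest log2 fold change. Slc38a4, a sodium-coupled amino acid carrier of liver and placenta whose gene is imprinted in mouse (chromosome 15, 96892701 to 96953837, minus strand, GRCm39), had 11.4, 12.8 and 3.89 CPM in GRdim replicates 1, 2 and 3, against 54.96, 18.3 and 17.8 CPM in GRwt replicates 1, 2 and 3. All GRdim libraries lay below all GRwt libraries; GRwt replicate 1 was well above the other GRwt libraries and GRdim replicate 3 the lowest (log2 fold change -1.70, standard error 0.56, unadjusted p = 0.0147). Without GRwt replicate 1 the estimate was -0.95 and the unadjusted p was 0.07901, with the ranges still apart.

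The promoter of Slc38a4 was searched, in the same GRCm38.p6 windows, for AGAACA, or TGTTCT on the other strand, the half-site that a glucocorticoid receptor monomer can bind. A stretch is shown because the receptor is the protein altered here, with that of Slc1a3, the higher member of smallest p; capitals mark the half-site.
Slc38a4, chr15:97020437-97020492, minus strand: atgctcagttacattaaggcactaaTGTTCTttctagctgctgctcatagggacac
Slc1a3, chr15:8710808-8710856, minus strand: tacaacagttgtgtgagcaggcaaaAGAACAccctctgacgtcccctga
The half-site was present in 17 of 89 member windows (19.1%), beside 19% of all windows. The pair of half-sites facing each other 3 bases apart, the form bound by a receptor dimer, was present in 0 member windows and in 3 of all 32851. The motif CACGTG, the E-box read by MYC among others and its own reverse complement, was present in 10.1% of member windows, Slc16a1 and Slc5a1 among them, beside 7.15% of all windows. The windows cover little of a gene's regulatory sequence, and no match says only that these letters are not in them.

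The abundant Slc38a carriers varied little between libraries. Slc38a2, a glutamine carrier known to be induced by amino acid shortage, had 269.5, 224 and 222 CPM in GRdim replicates 1, 2 and 3, against 221, 257 and 229 CPM in GRwt replicates 1, 2 and 3 (log2 fold change 0.02, standard error 0.18, unadjusted p = 0.926). Slc38a10 averaged 120.0 ± 11.2 CPM in GRdim and 125 ± 11.1 CPM in GRwt tumors (mean ± SD, n = 3 each). For Slc38a1, a glutamine carrier, and Slc38a9, the lysosomal arginine sensor, both chosen after their values were seen, the means were 127 ± 16.6 against 125 ± 20.2 CPM and 20.99 ± 2.51 against 17.7 ± 3.604 CPM (GRdim against GRwt). The family median of 0.02 was -0.08 without GRdim replicate 1 and 0.08 without GRdim replicate 2. Slc38a3, a glutamine carrier of liver and kidney, was not tested, with no more than 17 counts in a library. The median within-genotype SD of log2 CPM was 0.23 in this family, beside 0.46 over the tested members and 0.36 over all tested genes.

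In Slc43a, Slc43a1 and Slc43a2 carry branched-chain and other neutral amino acids and Slc43a3 purine bases. Slc43a1 had 9.21, 6.23 and 3.05 CPM in GRdim and 10.3, 9.31 and 7.49 CPM in GRwt tumors in replicates 1, 2 and 3 (log2 fold change -0.55, standard error 0.39, unadjusted p = 0.197). GRdim replicate 3 was the lowest, and without it the log2 fold change was -0.23. Slc43a2 and Slc43a3 averaged 23.9 ± 3.37 against 22.5 ± 2.02 CPM and 19.2 ± 5.68 against 16.1 ± 2.82 CPM (GRdim against GRwt). The family median of 0.09 was -0.04 without GRdim replicate 1 and 0.15 without GRwt replicate 1.

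Libraries of 1 genotype differed widely for many members. Among the 72 members with a mean of at least 1 CPM, GRdim replicate 1 was the highest GRdim library for 33 (45.8%, beside 35.9% of all genes at that level), and GRdim replicate 2 for 11 (15.3%, beside 30.6%). GRdim replicate 3 was the highest GRdim library for 28 and the highest of all 6 for 20 (27.8%, beside 19.2% of all genes). In GRwt tumors replicate 1 was the lowest library for 31 members (43.1%, beside 33.7%). The T in a library name did not order these 72 members alike: 22 were higher and 16 lower in the library with a T in both genotypes, and 34 went opposite ways. Over all tested genes, however, the libraries with a T, GRdim replicate 1 and GRwt replicate 3, deviated from their genotype means with a correlation of 0.45. That was the highest correlation of any GRdim library with a GRwt library, followed by 0.397 for GRdim replicate 3 with GRwt replicate 1. Deviations from a genotype mean cancel out within the genotype, so these correlations are tied to one another. Whether the T accounts for them was not tested.

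**Figure D5:**
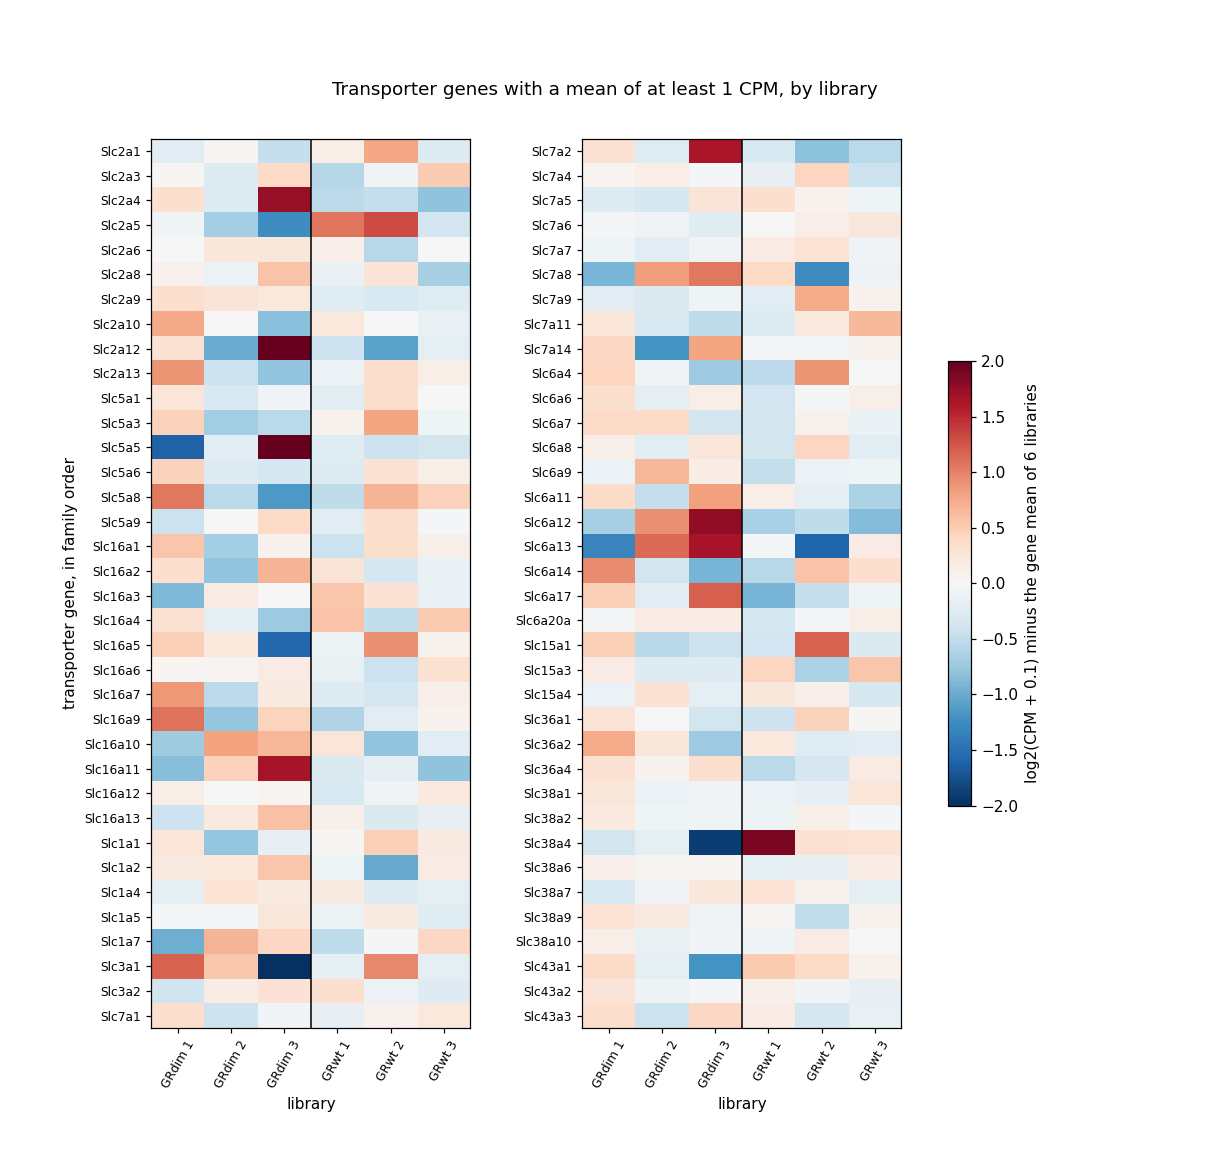
Library profile of the 72 tested members with a mean of at least 1 CPM. Colors give log2(CPM + 0.1) minus the gene's mean over 6 libraries, cut at 2 in either direction, rows are genes in family order and columns are libraries with GRdim left of the black line. GRdim replicate 3 holds the strongest colors, high for Slc2a4, Slc2a12, Slc5a5, Slc7a2, Slc6a12 and Slc6a13 and low for Slc3a1, Slc38a4 and Slc16a5.

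Partner genes were listed by function, outside the families except for Slc38a9. Among 5 tested accessory proteins, only Stom, which binds Slc2a1 in the membrane, had an unadjusted p under 0.05, where 1.09% of all genes tested stood lower. Stom had 116, 112 and 113 CPM in GRdim replicates 1, 2 and 3, against 161, 208 and 133 CPM in GRwt replicates 1, 2 and 3 (log2 fold change -0.56, standard error 0.20, unadjusted p = 0.0219). Bsg, the chaperone of Slc16a1 and Slc16a3, averaged 775 ± 151 CPM in GRdim and 926 ± 200.3 CPM in GRwt tumors. Of 11 genes of glucose transporter control 6 were higher and 5 lower with none at that level of p; Txnip, which removes Slc2a1 from the surface, averaged 533 ± 101 against 486 ± 194 CPM (GRdim against GRwt). Amino acid sensing genes, which include the member Slc38a9 among those higher, were higher in 8 of 10 cases and genes of glutamate and glutathione use in 4 of 9, again with none at that level.

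Lactate and butyrate genes were higher in 4 and lower in 4 of 8 cases. At an unadjusted p under 0.05, 1 stood higher and 1 lower, beside 1.79% and 1.09% of all genes tested. Pdk4, which holds back pyruvate oxidation, had 3.33, 15.4 and 20.4 CPM in GRdim and 5.77, 3.51 and 4.04 CPM in GRwt tumors in replicates 1, 2 and 3 (log2 fold change 1.55, standard error 0.57, unadjusted p = 0.0254), and Hcar2, a butyrate and niacin receptor, 2.85, 2.24 and 1.32 CPM in GRdim and 3.87, 3.41 and 5.75 CPM in GRwt tumors (log2 fold change -1.03, standard error 0.40, unadjusted p = 0.0305). Ldha, which makes lactate, averaged 719 ± 44.4 CPM in GRdim and 916 ± 109 CPM in GRwt tumors (log2 fold change -0.35, standard error 0.20, unadjusted p = 0.118). Its GRdim range lay below its GRwt range, as for 3.57% of all genes tested. Among 5 genes of arginine use, the nitric oxide synthase Nos2 averaged 31.1 ± 7.23 CPM in GRdim and 60.99 ± 25.8 CPM in GRwt tumors (log2 fold change -0.97, standard error 0.33, unadjusted p = 0.0164) and Arg1, an arginase, 43.8 ± 20.8 CPM in GRdim and 72.9 ± 19.5 CPM in GRwt tumors (log2 fold change -0.73, standard error 0.35, unadjusted p = 0.06705). None of the partner genes passed the adjusted threshold in edgeR.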

How the data were processed

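Polyadenylated RNA of 6 colonic tumor samples was sequenced after Illumina Stranded mRNA preparation, per the labels' protocols. Per the submitters' processing notes, the authors used bcl2fastq 2.20.0.422, Trim Galore, STAR 2.7.8a, build GRCm39, featureCounts of Subread 1.5.0 and DESeq2 1.40.2. The deposited values are raw read counts per gene. The annotation release and strand setting are not given in the sources used here. Columns were matched to samples by library name.

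All genes were fitted with the edgeR 4.0.16 quasi-likelihood test (R 4.3.3, TMM normalization, default low-count filter by group, robust dispersion), leaving 18756 genes, with Benjamini-Hochberg adjustment and a threshold of 0.05. CPM are counts scaled to the TMM-adjusted library total, log2 CPM uses a prior of 2 counts, and a standard error is the size of the log2 fold change divided by the root of F. The procedure was tested on simulated data. At an adjusted p under 0.05 it recovered 14.1% of 2-fold, 71.1% of 4-fold and 84.6% of 8-fold changes set there. These were 28, 143 and 170 genes, and 29 of 55668 unchanged genes were called as well. Whether these shares hold for the present libraries was not tested. Exon lengths came from GENCODE M21 (GRCm38), by gene ID, and all 91 members had one.

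The members, gene lists and tests were chosen with earlier results of these data known. Named members are those past the threshold, up to 8 of smallest p per direction with a mean of at least 1 CPM, the 2 of highest level per kb and the 1 of largest within-genotype SD in each family, and 5 set carriers; others are said to be chosen after seeing their values. The values of 1 member are not reported here. Promoter motifs were chosen with the members' values known. Alternatives were DESeq2 1.42.0, limma 3.58.1 voom with sample quality weights, RLE size factors, no low-count filter, the T in library names as a covariate, the replicate number as a block, the 4 libraries with no T, GRdim replicates 1 and 3 summed, names ending in the number only, and each library left out in turn. With 3 samples against 3, an exact permutation test cannot give a p below 0.1, so none was used.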

Additional observations from a re-analysis of the deposited data

How the results depend on the processing

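No member passed the adjusted threshold in any of the 15 alternatives to the edgeR fit. Members lower at an unadjusted p under 0.05 numbered 4 with limma-voom (2.19% of all genes) and 7 among the 4 libraries with no T (2.9%), and from 0 to 8 with a library left out (all genes 0.617% to 2.58%), against 2 (1.09%). Those higher numbered 9 with DESeq2 (1.87%), 8 with GRdim replicates 1 and 3 summed (1.59%) and from 1 to 11 with a library left out (0.622% to 3.36%), against 5 (1.79%). The members' median log2 fold change stayed between 0.06 and 0.15 with a library left out and between 0.03 and 0.12 otherwise. With the replicate block it was 0.11. In that fit 4 members stood higher (1.09% of all genes) and 2 lower (0.8%) at an unadjusted p under 0.05. Deviations of same-numbered libraries from their genotype means had correlations of -0.39, 0.03 and -0.43 over all tested genes. With 3 samples per genotype these correlations cannot settle whether the numbers pair the samples, and the labels do not say. Of 41 members followed, the 40 named by rule and Slc1a3, 24 kept their direction in all 14 fits that changed the model or the libraries, and 0 kept an unadjusted p under 0.05 in all of them. Changed directions, as log2 fold changes, were with limma-voom Slc16a1 -0.26, Slc3a1 -0.53, Slc6a8 -0.0863, Slc15a4 0.0202 and Slc38a2 -0.0554; with the T as a covariate Slc16a1 -0.0227, Slc3a1 -0.0676 and Slc15a4 0.0123; with the replicate block Slc16a1 -0.0197, Slc3a1 -0.39 and Slc15a4 0.0011. Further ones were among the 4 libraries with no T Slc16a1 -0.26, Slc3a1 -0.79, Slc6a8 -0.0469, Slc36a2 -0.19, Slc38a2 -0.10 and Slc43a2 -0.0977; with GRdim replicates 1 and 3 summed Slc16a1 -0.14, Slc6a8 -0.0041, Slc15a4 0.061 and Slc38a2 -0.0167; with no low-count filter Slc38a2 -0.0036. With a library left out, the log2 fold change ran as follows: Slc5a1 -0.24 to 0.0876, Slc5a5 -0.47 to 2.47, Slc5a8 -1.11 to 0.16, Slc16a1 -0.29 to 0.29, Slc1a5 -0.0085 to 0.23, Slc1a7 -0.13 to 0.58, Slc3a1 -0.59 to 0.61, Slc3a2 -0.12 to 0.23 and Slc6a8 -0.0838 to 0.35. It further ran: Slc6a14 -0.82 to 0.23, Slc15a1 -0.86 to 0.25, Slc15a4 -0.17 to 0.12, Slc36a1 -0.27 to 0.17, Slc36a2 -0.12 to 0.59, Slc38a2 -0.0823 to 0.0816, Slc38a10 -0.13 to 0.0168 and Slc43a2 -0.0386 to 0.15. The cause was not tested. Low counts limit Slc1a3, Slc2a5 and the 10 untested members, and 3 samples per genotype limit all.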
